A study of Homo sapiens with 10 samples.

Results

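The integrated stress response was followed through 10 genes in cultured human sensory neurons. They are ATF4, ATF5, DDIT3 (CHOP) and CEBPB, which encode basic leucine zipper (bZIP) transcription factors, and CHAC1, TRIB3, SESN2, DDIT4, ASNS and PSAT1, which are known targets of the response. The genes were picked by name from the 30357 named genes of the deposited tables, after CHAC1 and ATF5 had been seen to stand out in nociceptor library 4. The levels in that library, and the contrast between it and nociceptor libraries 1 to 3, are therefore described without a test. All 10 genes passed the filter on low counts.

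The cultures came from RUES2-AVIL:tdT, a human embryonic stem cell line with a tdTomato fluorescent reporter at AVIL, which encodes advillin and is used as a marker of sensory neurons. Each culture went through 1 of 3 differentiation protocols, named nociceptor (4 libraries), mechanoreceptor (3 libraries) and proprioceptor (3 libraries), and RNA was taken at day 60 in vitro. All groups share the cell line, the reporter and the day, so there was no untreated or unstressed group, and the line is 1 genetic background. Whether cells were sorted for the reporter, and whether the libraries, which their titles call biological replicates, came from separate differentiations, is not given in the sources used here, so the p-values measure only the spread between these libraries, which may be technical.

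Named genes received between 27891186 and 44541262 estimated counts per library. The 10 neuronal marker genes lay between 7.34 and 8.71 (average log2 CPM, with CPM the count relative to the scaled library total), and the sensory neuron genes between 4.38 and 5.79. Mesenchymal markers lay between 4.23 and 4.44 in nociceptor libraries 1 to 3, at 3.38 in mechanoreceptor library 3 and at 3.50 in proprioceptor library 2, against -0.19 to 1.42 in the other 5 libraries. Proprioceptor library 1 stood apart in scaling. Its log2 CPM values, scaled by the trimmed mean of M-values (TMM), lay a median 0.74 above log2(TPM + 1), against -0.04 to 0.31 in the other 9 libraries, where TPM is transcript abundance corrected for length. Levels below are deposited TPM, and fold changes are from counts, so for this library the scales can disagree.

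The integrated stress response is a shared reaction to amino acid shortage, unfolded protein in the endoplasmic reticulum (ER), double-stranded RNA and heme deficiency. A separate kinase senses each of these stresses and phosphorylates the initiation factor eIF2, which lowers protein synthesis in general while the ATF4 messenger RNA is translated more. The ATF4 protein then pairs with C/EBP family factors and switches on genes for amino acid uptake and synthesis, for tRNA charging and, when stress lasts, for cell death. ATF4 is controlled largely at translation, so its messenger RNA level is not a measure of its protein.

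A classical docking site of ATF4 with a C/EBP partner is the C/EBP-ATF composite element, searched here as TGATGNAA on both strands in the RefSeq promoters of GRCh38.p14 (250 bases before to 50 after a start site). It was found in 3.62% of 35116 promoters, or 4.46% of 27305 genes, and in 2 of the 10 genes, ASNS and CHAC1. For ASNS, the asparagine synthetase gene, the match lay on the gene strand with its first base 68 bases before the start site. For CHAC1 it lay on the opposite strand, 209 bases before the start site. The 250 bases before each start site are shown because these are the 2 genes with a match, with the element in capitals; it reads as its reverse complement in CHAC1.
ASNS, chr7:97872409-97872658, minus strand: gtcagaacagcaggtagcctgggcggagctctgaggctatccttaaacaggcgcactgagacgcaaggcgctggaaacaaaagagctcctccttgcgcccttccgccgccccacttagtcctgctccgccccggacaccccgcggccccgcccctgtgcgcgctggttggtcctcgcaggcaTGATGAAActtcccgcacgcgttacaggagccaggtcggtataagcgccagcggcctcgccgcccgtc
CHAC1, chr15:40953221-40953470, plus strand: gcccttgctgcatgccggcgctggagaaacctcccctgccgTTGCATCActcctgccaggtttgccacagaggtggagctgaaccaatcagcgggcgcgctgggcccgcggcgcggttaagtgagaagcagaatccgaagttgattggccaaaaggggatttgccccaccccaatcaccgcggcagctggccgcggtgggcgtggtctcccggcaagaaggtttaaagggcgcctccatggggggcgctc

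The same letters were looked for in lists of related genes. A match was found in 7 of 11 ATF4-linked tRNA synthetase and tRNA export genes that had a promoter in the table, in 0 of 6 other tRNA synthetase genes and in 4 of 8 amino acid transporter genes. It was found in only 1 of 6 amino acid and one-carbon synthesis genes and in 1 of 8 other ATF4-linked genes. In the transporter genes SLC7A1 and SLC3A2 the match began after the start site. The windows below run on the strand of the element, with the element in capitals, and show the bases on either side of the letters searched for in CHAC1, ASNS and related genes; the core is alike because it was searched for.
CHAC1: ctggcaggagTGATGCAAcggcagggga
ASNS: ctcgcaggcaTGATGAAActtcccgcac
SLC7A1: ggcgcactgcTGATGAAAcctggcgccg
SLC1A5: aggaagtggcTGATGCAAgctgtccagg
JDP2: tagccggggcTGATGCAAcccgtcccgc
CARS1: tcctagaatcTGATGCAAccgccgcccc
MARS1: aatccctcgcTGATGCAAccggaaccgg
A match is a description of the letters only, and the other 8 genes may hold elements outside this window.

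ATF4 (RefSeq, GRCh38.p14, chr22:39520559-39522686), the master factor of the response, had the smallest ratio between its highest and lowest library of the 10 genes. ATF4 stood, in order of library number, at 108, 215, 192 and 229.8 TPM under the nociceptor protocol, 250.4, 263 and 188 TPM under the mechanoreceptor protocol and 221, 197 and 141 TPM under the proprioceptor protocol. The 3 protocols overlapped, and the highest library was 2.43-fold the lowest. No difference between protocols passed the test, with edgeR log2 fold changes of 0.27 ± 0.46 (SE) for mechanoreceptor minus nociceptor (unadjusted p = 0.563, adjusted p = 0.812), 0.39 ± 0.46 for proprioceptor minus nociceptor and 0.11 ± 0.46 for proprioceptor minus mechanoreceptor. The last of these had the opposite sign on log2(TPM + 1), at -0.34.

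ATF5 (chr19:49928906-49933935) encodes a bZIP factor that is itself a target of ATF4 and is also controlled at translation. ATF5 stood at 3.99, 3.71, 4.44 and 19.8 TPM under the nociceptor protocol, 24.1, 24.2 and 6.03 TPM under the mechanoreceptor protocol and 10.5, 8.56 and 7.07 TPM under the proprioceptor protocol. Nociceptor libraries 1 to 3 were the 3 lowest of the 10, and nociceptor library 4 was near mechanoreceptor libraries 1 and 2. The transcript ATF5-201 carried 90.0% of the gene's mean TPM. Exons of NUP62 overlap ATF5 on the opposite strand and the kit does not mark strand. The TPM of NUP62 was 14.6 in nociceptor library 4 and 11.1 to 26.2 in nociceptor libraries 1 to 3, and its part in the ATF5 values was not tested.

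DDIT3 (chr12:57516588-57520517) encodes CHOP, a bZIP factor of prolonged ER stress and a heterodimer partner of C/EBP proteins. DDIT3 stood at 85.9, 114, 109.6 and 205 TPM under the nociceptor protocol, 539, 357 and 158 TPM under the mechanoreceptor protocol and 269, 143 and 69.9 TPM under the proprioceptor protocol. Mechanoreceptor library 1 was 7.71-fold above proprioceptor library 3, the lowest. MARS1, the methionyl-tRNA synthetase gene, shares exon sequence with DDIT3 on the opposite strand and ranged from 144 to 351 TPM, so reads of the shared stretch cannot be told apart.

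CEBPB (chr20:50190583-50192690) encodes C/EBP beta, the usual partner of CHOP. CEBPB stood at 7.66, 9.23, 10.2 and 10.98 TPM under the nociceptor protocol, 17.4, 13.7 and 7.90 TPM under the mechanoreceptor protocol and 4.68, 9.37 and 5.40 TPM under the proprioceptor protocol. The protocols overlapped in each of the 3 comparisons. On log2(TPM + 1) its pattern was closer to that of SESN2 (Pearson r = 0.90 over the 10 libraries, a description) than to that of its partner DDIT3 (r = 0.59).

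**Figure D1:**
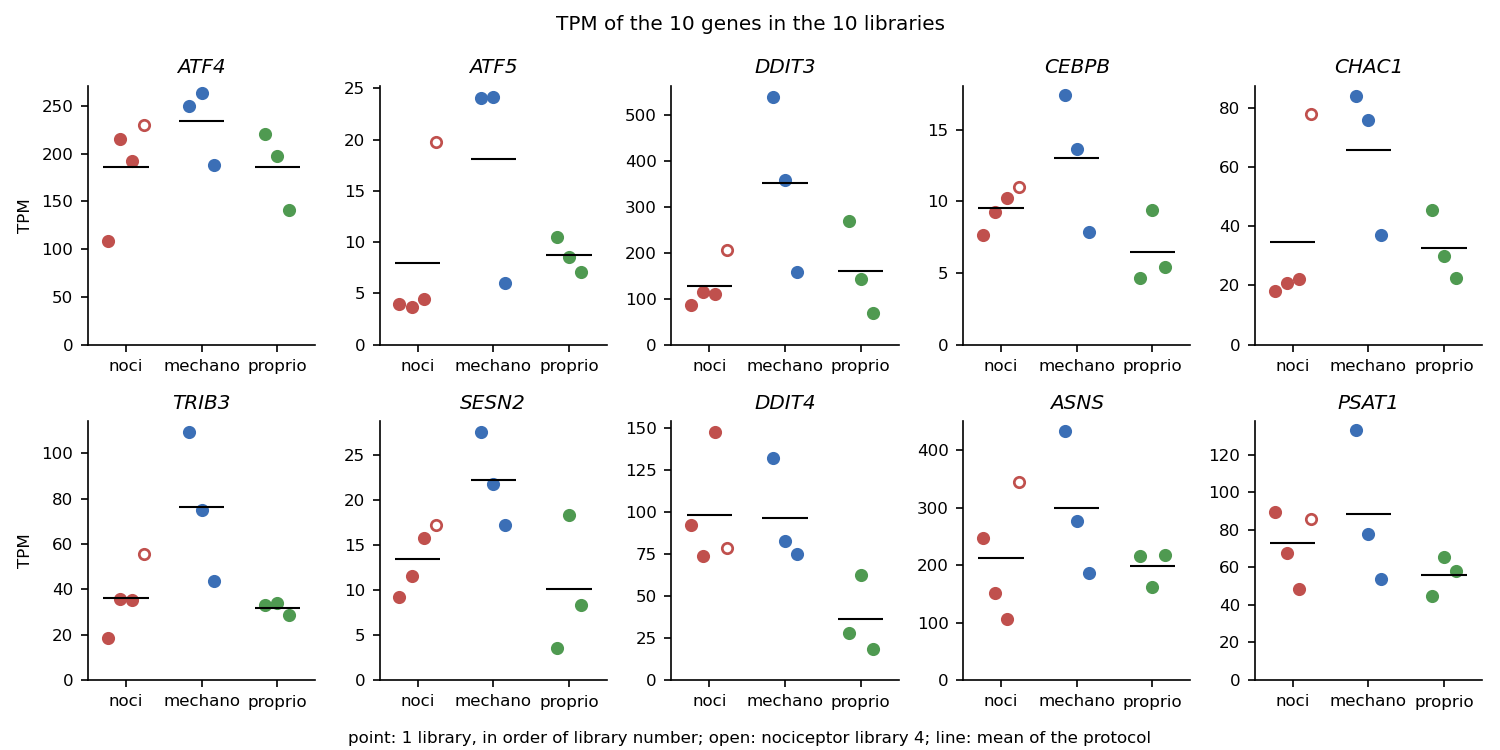
TPM of the 10 genes (vertical axes from 0, each gene on its own scale) in the nociceptor, mechanoreceptor and proprioceptor libraries; a point is 1 library, the open point is nociceptor library 4 and the line is the mean of the protocol. ATF5 and CHAC1 in nociceptor library 4, at 19.8 and 77.8 TPM, sit far above nociceptor libraries 1 to 3 and near mechanoreceptor libraries 1 and 2.

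CHAC1 (chr15:40953471-40956512) encodes an enzyme that degrades glutathione and is a sensitive marker of the ATF4 and CHOP branch. CHAC1 stood at 18.0, 20.6, 22.1 and 77.8 TPM under the nociceptor protocol, 84.0, 75.8 and 37.0 TPM under the mechanoreceptor protocol and 45.3, 30.0 and 22.4 TPM under the proprioceptor protocol. Nociceptor library 4 came second of the 10, below mechanoreceptor library 1 and just above mechanoreceptor library 2.

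TRIB3 (chr20:380760-397559), a pseudokinase gene induced by ATF4 and CHOP whose product restrains both the response and AKT signalling, had 18.6, 35.8, 35.4 and 55.6 TPM under the nociceptor protocol, 109.6, 75.0 and 43.7 TPM under the mechanoreceptor protocol and 33.0, 34.0 and 28.5 TPM under the proprioceptor protocol. The 3 mechanoreceptor libraries were above nociceptor libraries 1 to 3.

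SESN2 (chr1:28259518-28282491) and DDIT4 (chr10:72273924-72276036) encode Sestrin 2 and REDD1, which hold back the growth kinase complex mTORC1. SESN2 had 9.21, 11.5, 15.8 and 17.2 TPM under the nociceptor protocol, 27.6, 21.8 and 17.3 TPM under the mechanoreceptor protocol and 3.53, 18.4 and 8.28 TPM under the proprioceptor protocol. DDIT4 had 92.1, 73.4, 147 and 78.3 TPM under the nociceptor protocol, 132, 82.6 and 75.0 TPM under the mechanoreceptor protocol and 27.6, 62.2 and 18.4 TPM under the proprioceptor protocol. All 3 proprioceptor libraries were below the other 7 for DDIT4, and nociceptor library 3 was the highest. DDIT4 tracked CHAC1 weakly over the 10 libraries on log2(TPM + 1) (r = 0.18, a description).

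The product of ASNS (chr7:97851677-97928441) makes asparagine, and that of PSAT1 (chr9:78297125-78330093) catalyses a step of serine synthesis. ASNS had 247, 151, 107 and 344 TPM under the nociceptor protocol, 434, 278 and 185 TPM under the mechanoreceptor protocol and 215, 162 and 218 TPM under the proprioceptor protocol. PSAT1 had 89.7, 67.7, 48.3 and 85.7 TPM under the nociceptor protocol, 133, 77.9 and 54.0 TPM under the mechanoreceptor protocol and 44.8, 65.6 and 58.2 TPM under the proprioceptor protocol. The protocols overlapped for both genes, and mechanoreceptor library 1 was the highest for both.

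Nociceptor library 4 against libraries 1 to 3 of its own protocol showed an uneven pattern over the 10 genes. On TMM log2 CPM, ATF5 was 2.32 above their mean (5.0-fold), CHAC1 1.92 (3.77-fold) and ASNS 1.10 (2.14-fold). DDIT3 followed at 0.99, TRIB3 at 0.89, SESN2 at 0.48, ATF4 at 0.44, PSAT1 at 0.30 and CEBPB at 0.25, while DDIT4 was at -0.37. Thus 9 of 10 genes lay above that mean, beside 49.5% of the 16130 genes kept, 3 of 10 were at least 2-fold above it, beside 14.2%, and 7 of 10 lay above each of libraries 1 to 3, beside 29.0%. Nothing is read from these counts, since this contrast chose the genes. Scaled by plain count totals, 5 of 10 genes were at least 2-fold above.

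Nociceptor library 4 was the highest of the 10 for 0 of the 10 genes on TMM log2 CPM, beside 8.59% of all genes, a share near that background from which nothing is read, and for 1 when scaled by plain count totals. By TPM, mechanoreceptor library 1 or 2 was the highest for 9 of the genes and nociceptor library 3 for DDIT4. The share of all genes by TPM was not computed, so nothing is read from that count. Scaled as TMM log2 CPM, mechanoreceptor library 1 was the highest for 4 of the genes, beside 1442 of 16130 genes. Mechanoreceptor library 2 was then the highest for 1, beside 880 of 16130. On TMM log2 CPM, proprioceptor library 1 was the highest for 4 of the genes, beside 21.1% of all genes.

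Amino acid transporters, a list of related genes, were mixed in nociceptor library 4. Of 10 transporter genes, 6 lay above the mean of nociceptor libraries 1 to 3, 4 were at least 2-fold above it (beside 14.2% of all genes) and 5 were the highest of the 10 libraries on TMM log2 CPM (beside 8.59%). SLC43A1 was at least 2-fold below, at -1.23, and SLC38A2, SLC1A4 and SLC6A9 were at -0.47, -0.28 and -0.03; these 4 are named outside the rule, after their values were seen. SLC7A11, the cystine transporter, was at 2.51 TPM against 0.571, 0.475 and 0.157 in nociceptor libraries 1 to 3. SLC7A1, an arginine and lysine transporter whose promoter window is shown above, was at 24.6 TPM against 7.06, 5.39 and 7.46. SLC7A3, of the same transporter family, was at 28.4 TPM against 4.82, 4.07 and 11.3. Each of these 3 genes was above the other 9 libraries.

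Of 11 amino acid and one-carbon synthesis genes, 2 were at least 2-fold above the mean of nociceptor libraries 1 to 3, beside 14.2% of all genes. That share is near the background and nothing is read from it, and 1 gene was at least 2-fold below. Within this list PHGDH, the entry enzyme of serine synthesis, was at 125 TPM against 30.6, 57.1 and 52.2. Of 6 partner bZIP genes, 3 were at least 2-fold below, beside 16.8% of all genes (ATF3 at -1.27, CEBPD at -2.08 and NFE2L2 at -1.58 on log2 CPM, with ATF3 and CEBPD named after their values were seen), and the list median was -0.51. JDP2, a bZIP repressor gene of that list, was at 25.7 TPM against 6.16, 12.9 and 12.6. The ATF4-linked tRNA synthetases differed less, with 0 of 14 at least 2-fold above and a median log2 CPM difference of 0.13. ER chaperones, targets of the ATF6 and XBP1 branches, had a median difference of -0.74, although HERPUD1 and XBP1 were at 305 and 325 TPM, above the 154 to 207 and 182 to 216 of nociceptor libraries 1 to 3. Of 10 p53 targets, 9 were at least 2-fold below, beside the same 16.8%, with a median of -1.93.

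**Figure D2:**
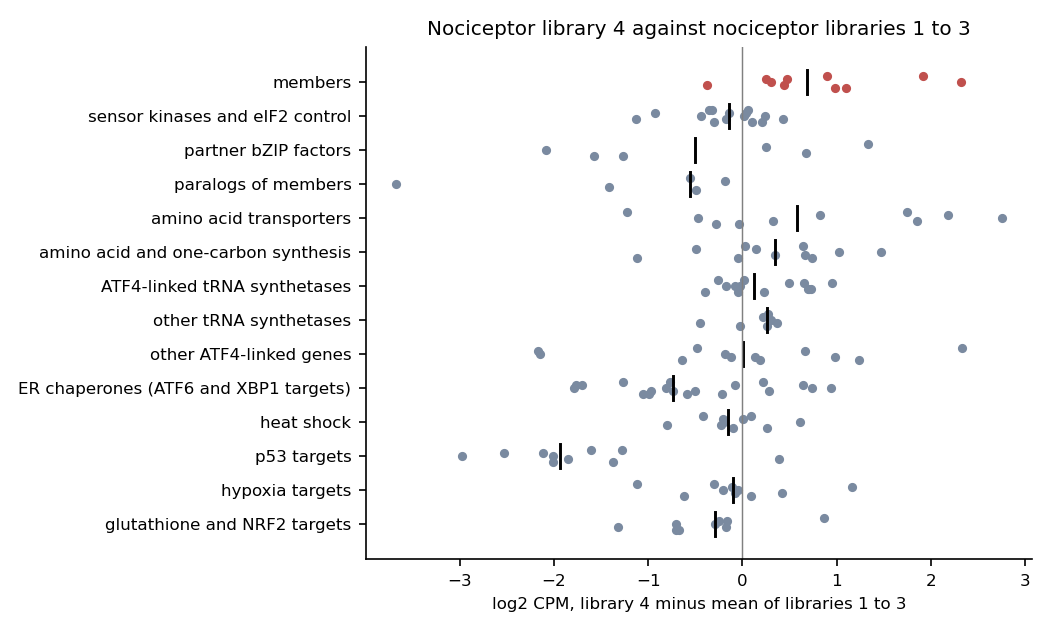
Difference in TMM log2 CPM between nociceptor library 4 and the mean of nociceptor libraries 1 to 3 (horizontal axis) for the 10 genes (red, row "members") and 13 wider lists (grey); a point is 1 gene and the bar is the median of the list. The median is 0.69 for the 10 genes and -1.93 for p53 targets, and it is -0.01 over all genes.

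The cell make-up of nociceptor library 4 also differed from libraries 1 to 3. All 9 mesenchymal markers kept were at least 2-fold below, with a list level of 1.42 against 4.23 to 4.44, and PDGFRA, TWIST1 and PRRX1 were at 0 in some of the 10 libraries. The glial level was 3.91 against 5.89 to 6.29, with 6 of 8 markers at least 2-fold below and none at 0 in any library. The neuronal level was 8.25 against 7.34 to 7.63, with 5 of 10 markers at least 2-fold above. The sensory neuron level was 5.72 against 4.38 to 4.81, with 6 of 10 at least 2-fold above and a median difference of 1.27, larger than the 0.69 of the 10 stress response genes. Markers of dividing cells had a level of 1.98 against 4.25 to 4.49, with 6 of 8 at least 2-fold below. The autonomic level was -2.54 against 0.78 to 5.46, with all 6 markers at least 2-fold below. The part of these in the levels of the 10 genes was not tested, and in bulk RNA fewer cells of a type and less RNA per cell cannot be told apart.

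Mechanoreceptor against nociceptor libraries was tested without nociceptor library 4. The choice of ATF5 and CHAC1 rested on that library standing above nociceptor libraries 1 to 3, so low values in those 3 libraries are part of the choice and leaving library 4 out favours a high difference for these genes. Their p-values against the nociceptor libraries support nothing on their own. The 4 genes with the largest differences were ATF5, DDIT3, CHAC1 and TRIB3, each higher in the 3 mechanoreceptor libraries than in nociceptor libraries 1 to 3. By edgeR, ATF5 had a log2 fold change of 2.12 ± 0.64 (unadjusted p = 0.00792, adjusted p = 0.19). The difference for DDIT3 was 1.57 ± 0.68 (unadjusted p = 0.0454, adjusted p = 0.304), that for CHAC1 1.52 ± 0.53 (unadjusted p = 0.0166, adjusted p = 0.224) and that for TRIB3 1.14 ± 0.46 (unadjusted p = 0.0329, adjusted p = 0.273). None passed the adjusted threshold of 0.05.

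The other 6 genes had smaller differences. ASNS was at 0.74 ± 0.45, SESN2 at 0.70 ± 0.41, CEBPB at 0.37 ± 0.37, PSAT1 at 0.21 ± 0.35 and DDIT4 at -0.29 ± 0.45 (unadjusted p between 0.122 and 0.563). Positive log2 fold changes were seen for 9 of 10 genes, beside 51.5% of 16057 genes tested, with a median of 0.72 against 0.03 over all genes. At an unadjusted p under 0.05, 4 of 10 were higher, beside 8.25%, and 0 were lower, beside 7.82%. These 4 did not overlap, beside 13.7%. ATF5 and CHAC1 are among these 4, and their low values in the nociceptor libraries tested were part of the choice. The counts therefore cannot be weighed against the shares of all genes, and nothing is read from them.

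At the adjusted threshold, edgeR called 0 of the 10 genes and 0 of all genes (0.0%), with 2580 of all genes at an unadjusted p under 0.05. DESeq2 on the same libraries called 812 genes, among them ATF5 (log2 fold change 2.09 ± 0.65, adjusted p = 0.0347), while limma on log2(TPM + 1) called 0. With nociceptor library 4 included, the median over the 10 genes was 0.49 and none had an unadjusted p under 0.05. ATF5 was then at 1.12 ± 0.74 (edgeR, unadjusted p = 0.161), CHAC1 at 0.77 ± 0.62 (unadjusted p = 0.237), DDIT3 at 1.26 ± 0.62 and TRIB3 at 0.89 ± 0.43.

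Markers of other cells moved with this comparison. The mesenchymal level was 4.23 to 4.44 in nociceptor libraries 1 to 3 and -0.03, -0.19 and 3.38 in the mechanoreceptor libraries, with 9 of 9 markers lower. The glial level was 5.89 to 6.29 against 0.69, -0.67 and 5.20, with 8 of 8 lower. Dividing cell markers were lower in 8 of 8 (median -3.48), 7 of them at an unadjusted p under 0.05. Neuronal markers were higher in 9 of 10 (median 0.61) and sensory neuron markers in 8 of 10 (median 0.91), beside 9 of 10 and 0.72 for the stress response genes. With the mesenchymal level as a covariate, the median over the 10 genes was 0.08, against -0.03 over all genes, and 6 of 10 were positive. The share of all genes positive in that setting was not computed, so nothing is read from this count. ATF5 was then at 0.40 ± 0.66 (edgeR, unadjusted p = 0.553), CHAC1 at 0.40 ± 0.58, TRIB3 at 0.30 ± 0.58 and DDIT3 at 0.13 ± 0.76. SESN2 went the other way, from 0.70 ± 0.41 to 1.19 ± 0.61 (edgeR, unadjusted p = 0.0769), and DDIT4 went from -0.29 to -0.20. The protocol difference and the cell make-up cannot be told apart in these libraries. Within the mechanoreceptor protocol, library 3, which had the highest mesenchymal level of the 3, had the lowest TPM for all 10 genes. The share of all genes lowest in that library was not computed, so nothing is read from this count. Within the proprioceptor protocol, library 2 had the highest mesenchymal level, 3.50. That library had the lowest TPM of its protocol only for ASNS and the highest for CEBPB, TRIB3, SESN2, DDIT4 and PSAT1.

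**Figure D3:**
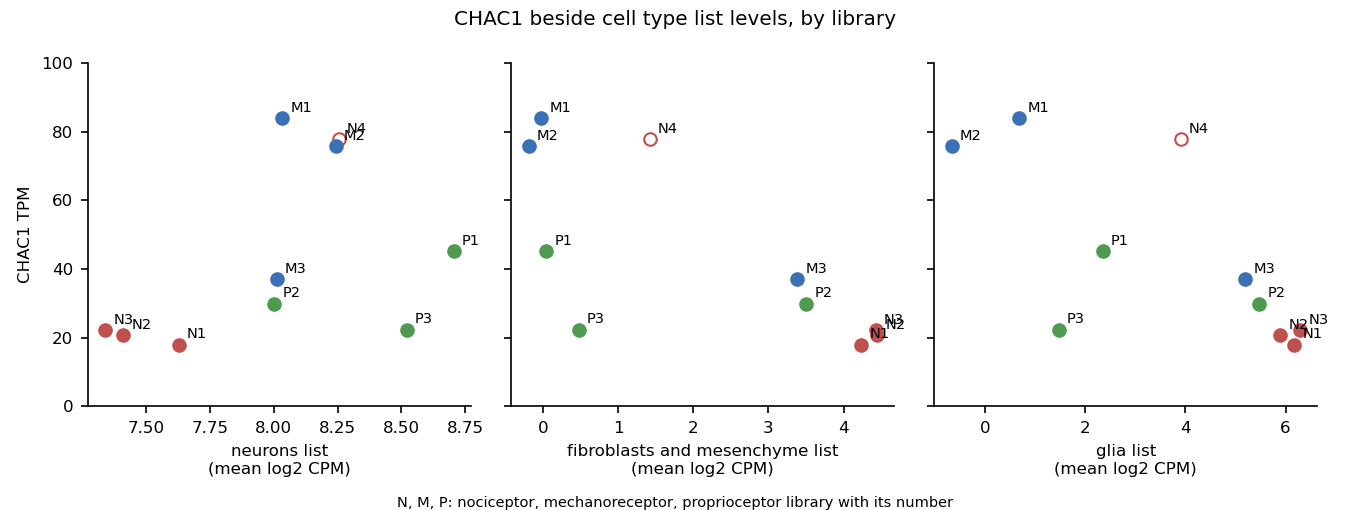
CHAC1 TPM (vertical axis from 0) against the mean log2 CPM of the neuronal, mesenchymal and glial marker lists (horizontal axes); a point is 1 library, labelled by protocol (N, M, P) and number, and nociceptor library 4 is open. Mechanoreceptor libraries 1 and 2 have low mesenchymal levels and 84.0 and 75.8 TPM, and proprioceptor library 3, also low at 0.47, has 22.4 TPM.

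The relation to cell make-up was not the same for each gene. Over the 10 libraries, log2(TPM + 1) of ATF5 and CHAC1 ran opposite to the mesenchymal level (r = -0.82 and -0.73, descriptions over libraries that share protocols). For DDIT3 it was -0.65 and for DDIT4 0.40. Proprioceptor library 3, low in mesenchymal and glial levels (0.47 and 1.47), had the lowest TPM of the 10 libraries for both DDIT3 and DDIT4, at 69.9 and 18.4.

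Among related genes in the same comparison, 12 of 14 ATF4-linked tRNA synthetase and export genes had positive log2 fold changes (median 0.59). WARS1, the tryptophanyl-tRNA synthetase gene, was at 0.98 ± 0.33 (unadjusted p = 0.0146, adjusted p = 0.219), with 359, 267 and 317 TPM in nociceptor libraries 1 to 3 and 923, 801 and 463 in the mechanoreceptor libraries. MARS1 was at 0.85 ± 0.30 and YARS1 at 0.75 ± 0.33. The other tRNA synthetases had 6 of 7 positive (median 0.39). SLC7A5, a leucine transporter gene, was at 1.35 ± 0.39 (unadjusted p = 0.00658, adjusted p = 0.184), but transporters were 5 positive and 5 negative. The other ATF4-linked genes were 6 positive and 6 negative (median 0.02). Among them RAB32 was at -2.15 ± 0.58 (edgeR, unadjusted p = 0.00454, adjusted p = 0.172). INHBE, a secreted factor gene, was at 2.56 ± 0.57 (edgeR, unadjusted p = 0.00126, adjusted p = 0.153), from 0.247 to 0.644 TPM in nociceptor libraries 1 to 3 to 1.38 to 3.85 in the mechanoreceptor libraries.

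Genes of ER chaperones and p53 targets had mostly negative values, whereas 6 of 10 hypoxia targets, 6 of 9 glutathione and NRF2 targets and 5 of 10 heat shock genes were positive. ER chaperones had 13 of 19 negative values (median -0.56), among them PDIA6 at 1033, 717 and 1238 TPM in nociceptor libraries 1 to 3 and 164, 138 and 656 in the mechanoreceptor libraries. All 10 p53 targets were negative (median -1.35), 7 of them at an unadjusted p under 0.05. GDF15, a stress cytokine gene controlled by both CHOP and p53, was at -2.42 ± 0.90. The 15 genes of the eIF2 kinases and eIF2 control had 9 positive values and a median of 0.04. Among the kinases that sense the stresses, EIF2AK2 was at -0.77 ± 0.34 (edgeR, unadjusted p = 0.0452, adjusted p = 0.304), EIF2AK3 at -0.61 ± 0.50, EIF2AK4 at -0.64 ± 0.29 and EIF2AK1 at 0.15 ± 0.24; EIF2AK1 and EIF2AK3 are named outside the rule, after their values were seen. None of these genes passed the adjusted threshold.

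**Figure D4:**
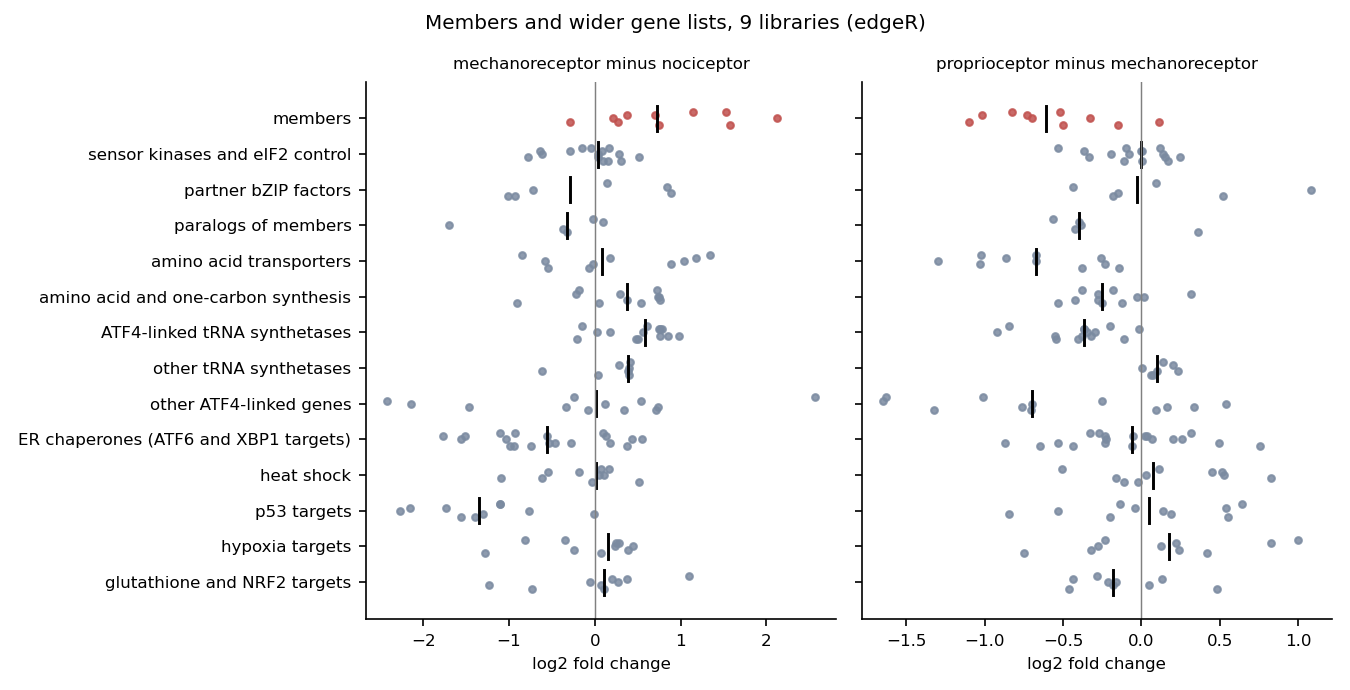
Log2 fold changes from edgeR on 9 libraries (horizontal axes) for the 10 genes (red, row "members") and 13 wider lists (grey), for mechanoreceptor minus nociceptor and proprioceptor minus mechanoreceptor; a point is 1 gene and the bar is the median of the list. The medians of the 10 genes are 0.72 and -0.61, and those of the ATF4-linked tRNA synthetases 0.59 and -0.37.

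Proprioceptor against nociceptor libraries 1 to 3 gave differences of both signs over the 10 genes, in shares near those of all genes. DDIT4 was lower in all 3 proprioceptor libraries, at -1.39 ± 0.45 (edgeR, unadjusted p = 0.0126, adjusted p = 0.268), and 1 of 10 genes below without overlap stands beside 10.5% of all genes. ATF5 was higher in all 3, at 1.43 ± 0.62 (unadjusted p = 0.0461, adjusted p = 0.32), and 1 of 10 above without overlap stands beside 9.35%. CHAC1 was at 1.01 ± 0.52 and DDIT3 at 1.07 ± 0.68, and both overlapped on log2 CPM.

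The remaining genes lay between -0.36 (CEBPB) and 0.59 (ASNS). Positive values were seen for 6 of 10, beside 53.8% of all genes, with a median of 0.35 against 0.07. At an unadjusted p under 0.05, 1 of 10 was higher, beside 8.25%, and 1 was lower, beside 7.06%. The higher gene was ATF5, whose low values in the nociceptor libraries tested were part of the choice, so nothing is read from its count. The other counts of this comparison, with that of DDIT4, are near the shares of all genes, and nothing is read from them. At the adjusted threshold edgeR called 0 of the 10 and 0 of all genes (2458 at an unadjusted p under 0.05), and DESeq2 called 458 genes and none of the 10. Without proprioceptor library 1, 3 of 10 were positive and the median was -0.17, against -0.048 over all genes. The share of all genes positive in that setting was not computed. Without nociceptor library 1 the median was 0.079, against 0.122 over all genes. The positive median therefore depends on single libraries. The mesenchymal level was 0.04, 3.50 and 0.47 in the proprioceptor libraries, with 9 of 9 markers lower than in nociceptor libraries 1 to 3. With that level as a covariate, the median over the 10 genes was -0.34, against 0.007 over all genes.

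Proprioceptor against mechanoreceptor libraries gave negative values for 9 of the 10 genes, beside 46.3% of all genes, with a median of -0.61 against 0.04. Leaving out each library in turn gave medians from -1.05 (without proprioceptor library 1) to -0.30 (without proprioceptor library 3), and 0 to 5 of the 10 at an unadjusted p under 0.05. The 5 were without proprioceptor library 1, and the 0 without mechanoreceptor library 1, mechanoreceptor library 2 or proprioceptor library 3. DDIT4 was at -1.10 ± 0.45 (edgeR, unadjusted p = 0.036, adjusted p = 1) and SESN2 at -1.02 ± 0.42 (unadjusted p = 0.0351, adjusted p = 1). They are 2 of 10 at an unadjusted p under 0.05, beside 0.828%, and 2 of 10 without overlap on log2 CPM, beside 3.37%. By TPM, proprioceptor library 2 (18.4) was above mechanoreceptor library 3 (17.3) for SESN2, while DDIT4 kept the gap.

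TRIB3 was at -0.83 ± 0.46, CEBPB at -0.73 ± 0.38, ATF5 at -0.70 ± 0.61, CHAC1 at -0.52 ± 0.52 and DDIT3 at -0.50 ± 0.67. edgeR called 0 of the 10 genes and 0 of all genes (274 at an unadjusted p under 0.05), and DESeq2 called 3 genes and none of the 10. On log2(TPM + 1), where the median over all genes was -0.21, all 10 were negative. With the mesenchymal level as a covariate the median over the 10 genes was -0.41, against 0.025 over all genes.

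**Figure D5:**
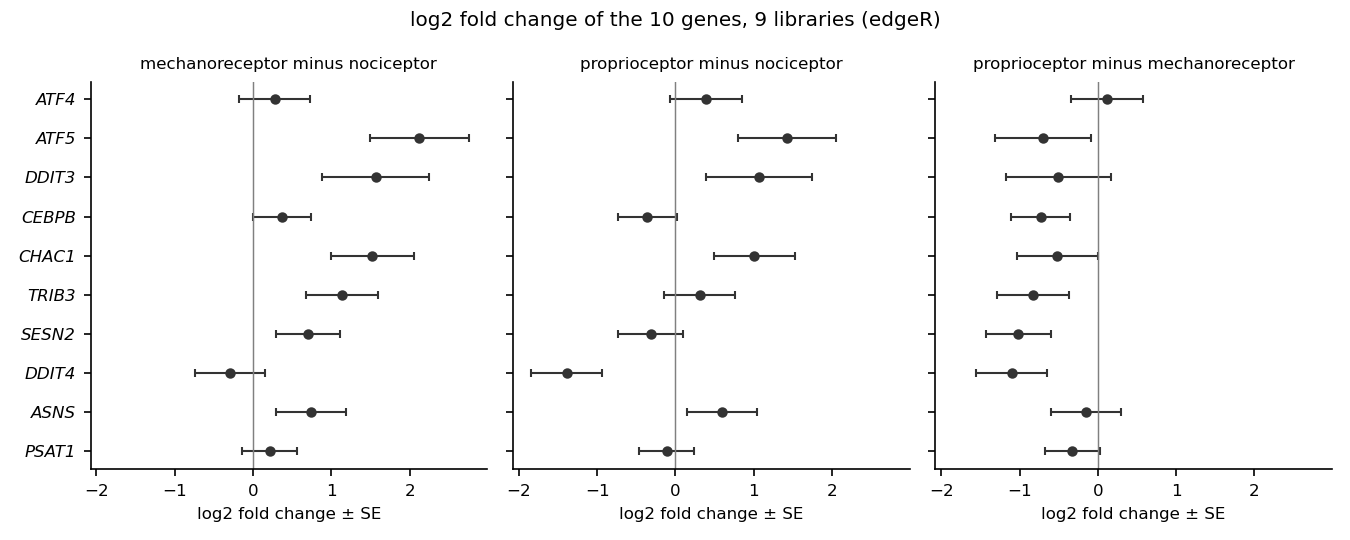
Log2 fold changes of the 10 genes (horizontal axes) with their standard errors in the 3 comparisons, from edgeR on 9 libraries. ATF5 has the highest mechanoreceptor minus nociceptor value, 2.12, and DDIT4 the lowest value in both proprioceptor comparisons, -1.39 and -1.10.

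Amino acid transport and tRNA charging genes also had negative values. All 10 transporters were negative (median -0.67), with SLC7A5 at -1.03 ± 0.39 (unadjusted p = 0.0251) and the glutamine transporter gene SLC1A5 at -1.03 ± 0.43 (unadjusted p = 0.0388). All 14 ATF4-linked tRNA synthetase and export genes were negative (median -0.37), while 7 of 7 other tRNA synthetases were positive (median 0.10). On TMM log2 CPM, proprioceptor library 1, whose scaling stood apart, was the highest library for 6 of these 7. It was the highest for 1 of the 14, beside 21.1% of all genes, and the part of the scaling in these signs was not tested. For both transporters the adjusted p was 1 (edgeR), and the difference between these lists was not tested.

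The genes most like CHAC1 in log2(TPM + 1) over the 10 libraries, among 13931 with a mean TPM of at least 1, were KREMEN2 (Pearson r = 0.95), OXSM, MFSD13A, SARS1 (r = 0.94) and SPAG4. SARS1, the seryl-tRNA synthetase gene, had 549 TPM in nociceptor library 4 against 218, 323 and 281 in nociceptor libraries 1 to 3. The ranking included nociceptor library 4, on which CHAC1 was picked, so a high SARS1 value there is in part built in and is a description. Without nociceptor library 4, the list was CFAP276, ASS1 (r = 0.97), ZNF622, FGGY and MED8. ASS1, the argininosuccinate synthetase gene, had 174 and 168 TPM in mechanoreceptor libraries 1 and 2. For ATF5 the nearest were KCNJ11, ALS2CL, GLYATL2, GREB1 and TMCO6 over 10 libraries, and without nociceptor library 4 the nearest included TTLL11, SUSD2, LIPT2 and AVL9. Among the 10 genes on log2(TPM + 1), ATF5 and CHAC1 had r = 0.96 over the 10 libraries, which include the library they were picked on. Without it, DDIT3 and CHAC1 had r = 0.96 and ATF5 and CHAC1 r = 0.95.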

How the data were processed

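Bulk RNA was profiled in 10 libraries, grouped by their titles. Trizol extraction, cDNA synthesis by the Clontech Ultra Low v4 kit and NexteraXT libraries are given per the labels' protocols. Per the submitters' processing notes, the authors quantified reads with kallisto 0.50.1 on GRCh38.p14. They deposited estimated counts, which are whole numbers in the files, and TPM (abundance corrected for length) per gene and per transcript. How transcripts were summed to genes is not given in the sources used here. The blank-named entry (0.733% to 1.66% of counts) was left out.

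Genes were kept by filterByExpr (16057 in 9 libraries) and tested with edgeR 4.0.16 (TMM, quasi-likelihood, R 4.3.3), two-sided, with Benjamini-Hochberg adjustment over all genes and a threshold of 0.05. The SE is the log2 fold change divided by the square root of F. Nociceptor library 4, which chose the genes, was kept out of the fit and described on TMM log2 CPM (prior count 2). The model left 6 residual degrees of freedom. The pipeline was tested on simulated data. Alternatives were DESeq2 1.42.0, limma 3.58.1 on log2(TPM + 1) and log2(TPM + 0.1), other scaling and filters, a replicate block, a mesenchymal covariate and leaving out each library.

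The 10 genes and the wider lists were chosen with earlier results of these data known. All 10 genes are named. Of each wider list, up to 4 genes with the smallest unadjusted p (under 0.05) and up to 4 that led in nociceptor library 4 could be named, and for CHAC1 and ATF5 the 5 most alike genes. Not all of these are reported here. SARS1 and ASS1 were singled out for values after these were seen. Promoters, coordinates and start sites came from RefSeq, transcript names from GENCODE by Ensembl identifier, with all of ATF5 and CHAC1 matched but 1.61% of ATF4 TPM. Libraries were amplified, so counts are reads and not molecules.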

Additional observations from a re-analysis of the deposited data

Results flagged for a closer look

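Within the 4 nociceptor libraries, library 4 was far from the others for ATF5 (19.8 TPM) and CHAC1 (77.8 TPM). The gap to the nearest library was 0.954 and 0.931 of the range of the 4 values, above the critical value of Dixon's test for 4 samples. Chance alone puts about 1 in 20 groups past that value, and both genes were chosen for this library, so the gaps are a description. None of the other 8 genes passed it.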

How the results depend on the processing

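No replicate pairing is stated. Same-numbered libraries correlated over 0.1 in 4 of 9 pairs, against 7 of 18 other pairs, so the numbers were not taken to pair them. With the replicate number as a block, 0 genes and 0 of the 10 were called in each comparison. Leaving out any 1 of the 9 libraries also gave 0 called genes, with 1277 to 3500 (mechanoreceptor minus nociceptor), 1478 to 3846 (proprioceptor minus nociceptor) and 128 to 924 (proprioceptor minus mechanoreceptor) at an unadjusted p under 0.05.

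DESeq2 called 812, 458 and 3 genes for mechanoreceptor minus nociceptor, proprioceptor minus nociceptor and proprioceptor minus mechanoreceptor, and 1 of the 10 (ATF5) in the first. With the mesenchymal covariate 1 gene was called in each of the first 2. In nociceptor library 4, scaling by plain count totals made 1 of the 10 genes the highest of the 10 libraries and put 5 at least 2-fold above.

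Over these settings 487 fold changes of the 10 genes kept their sign and side of the threshold, 22 turned sign and 1, ATF5, newly passed. For mechanoreceptor minus nociceptor, leaving out 1 library gave ATF4 -0.006 (without nociceptor library 1) to 0.507, DDIT4 -0.576 to 0.061 (without nociceptor library 3) and PSAT1 -0.21 (without mechanoreceptor library 1) to 0.404, and the covariate gave ATF4 -0.27, ASNS -0.34 and PSAT1 -0.41. For proprioceptor minus nociceptor, PSAT1 ran from -0.33 to 0.051 (without nociceptor library 1), while ATF4 ran from -0.251 to 0.644, DDIT3 from -0.179 to 1.47 and TRIB3 from -0.152 to 0.499, each lowest without proprioceptor library 1. The covariate there gave ATF4 -0.14, DDIT3 -0.25, CHAC1 -0.033, TRIB3 -0.42, SESN2 0.018 and ASNS -0.44. For proprioceptor minus mechanoreceptor, ASNS ran from -0.674 to 0.134 (positive without mechanoreceptor library 1 or proprioceptor library 2), PSAT1 from -0.549 to 0.046 (without mechanoreceptor library 1) and ATF4 from -0.496 (without proprioceptor library 1) to 0.396, and limma gave ATF4 -0.34 with either pseudocount. The cause of these was not tested.

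With 3 libraries a protocol and a common coefficient of variation of 0.527, differences near 1 on the log2 scale had standard errors near 0.5. Counts of ATF5 were 156 to 1174, so the spread between libraries and not counting limited precision.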
